A study of Mus musculus with 2 samples.

Results

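The cyclin and cyclin-dependent kinase genes of mouse leukaemia-initiating cells were compared between 2 libraries, named here by their labels: 1 of wild type (WT) and 1 of the P2X1 knockout (P2X1-KO). Members were taken by name, as the letters Ccn followed by 1 more letter and a number, or Cdk followed by a number. This gave 34 of the 46095 gene rows, 16 of them cyclins and 18 kinases. Of the 34, 32 had at least 1 count, and 29 had a mean of at least 5 CPM (counts per 1000000 of the scaled library) over the 2 libraries. Cyclins whose symbol ends in the letter alone, such as Ccnc or Ccnk, do not match the names and are given as partners.

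The cells came from acute myeloid leukaemia in C57BL/6 mice, with an age of 8 weeks in the labels, and were sorted from bone marrow for Mac1 and KIT. Both groups share the strain, the age, the disease and the sort. The sample carrying the P2x1-KO genotype is called a knockout in its title and a knockdown (P2X1-KD) in the protocol, where its control is P2X1-Scr. The sources used here do not say which oncogene drove the leukaemia, or how many animals gave each library. With 1 library per group there is no replicate, no p-value can be had, and every interval below covers counting error alone.

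Cyclins are regulatory subunits that switch on cyclin-dependent kinases (CDKs). D cyclins with CDK4 or CDK6, then E and A cyclins with CDK2, carry a cell from G1 into DNA replication by phosphorylating the retinoblastoma protein, and A and B cyclins with CDK1 drive mitosis. Other family members do not time the cycle: T cyclins with CDK9, cyclin H with CDK7, cyclin K with CDK12 or CDK13 and cyclin C with CDK8 or CDK19 act on RNA polymerase II, and L cyclins act in splicing. In myeloid progenitors CDK6 is known as an abundant kinase that also acts in transcription and holds back differentiation.

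The WT-labelled library held 14658620 counts and the KO-labelled library 9447894, so a count of 0 allows up to 0.192 CPM in the former and 0.338 CPM in the latter (3 counts). P2rx1, the targeted gene, had 27 counts (1.73 CPM) in the WT-labelled library and 45 counts (5.07 CPM) in the KO-labelled library, a 2.93-fold higher level (95% interval 1.78 to 4.90). Its mean of 3.40 CPM lies under the 5 CPM used for comparisons. The direction of the transcript thus goes against the label, though gene counts do not tell whether a functional product is lost. All directions below are between libraries as labelled. Of the sort markers, Kit stood at 13.3 and 19.9 CPM and Itgam, which encodes Mac1, at 307 and 504 CPM in the libraries labelled WT and P2X1-KO. Most markers of mature myeloid cells were also higher in the KO-labelled library. The 12 neutrophil markers summed to 3491 CPM in the WT-labelled library and 14185 CPM in the other, with 10 of the 11 at 5 CPM or more at least 2-fold higher and none at 0. The exception of the 11, Ly6g, was 1.72-fold lower (1.17 to 2.59). The 12 monocyte and macrophage markers summed to 961 and 6259 CPM, with 10 of 11 at least 2-fold higher and Mrc1 at 0 in the KO-labelled library. Here the exception, Ly6c2, was 1.10-fold lower (1.06 to 1.14). The 12 eosinophil, mast cell and basophil markers summed to 40.9 and 254 CPM, with 4 of 5 at least 2-fold higher, and Ear1, Fcer1a, Il5ra and Tpsb2 at 0 in both. Mcpt8, the other of these 5, was 1.48-fold lower (1.26 to 1.75). The 8 stromal markers summed to 95.1 and 250.2 CPM, with the collagens Col1a1, Col1a2 and Col3a1 higher and Pdgfrb 1.98-fold lower. Cxcl12 had 14 and 0 counts and Lepr 1 and 0, and Lum and Dcn were at 0 in both. Erythroid and megakaryocyte markers summed to 3.34 and 5.97 CPM, with 5 of 9 at 0 in the WT-labelled library and 6 in the other. Lymphoid markers summed to 31.9 and 63.2 CPM, with 6 and 5 of 10 at 0. The part of these cells in the results below was not tested, and in bulk RNA fewer cells of a type and less RNA per cell cannot be told apart.

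Ccnd1, Ccnd2 and Ccnt1 stood furthest apart between the libraries, and the other members at 5 CPM or more lay within 2-fold. Of the 29 members at 5 CPM or more, 2 were at least 2-fold higher in the KO-labelled library, Ccnd1 and Ccnd2, and 1, Ccnt1, lay below by that factor. Among all 10483 genes at this level, 12.1% reached 2-fold on the higher side and 10.6% on the lower, or 22.7% in either direction, against 6.90% and 3.45% of the members. For these 3 genes the whole interval lay beyond 2-fold, as it did for 9.37% of all genes on the higher side and 6.21% on the lower. Smaller differences beyond counting error were common: the interval lay above a ratio of 1 for 12 members and below it for 14, where the shares over all genes were 35.9% and 43.7%. The median log2 difference, taken as log2(CPM + 0.5) in the KO-labelled library minus that in the WT-labelled library, was -0.17 for the members and -0.08 for all genes. Of all genes at least 2-fold apart, 53.4% were higher, but 38.7% when scaled to total counts, which moves every difference down by 0.18 log2 units.

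**Figure D1:**
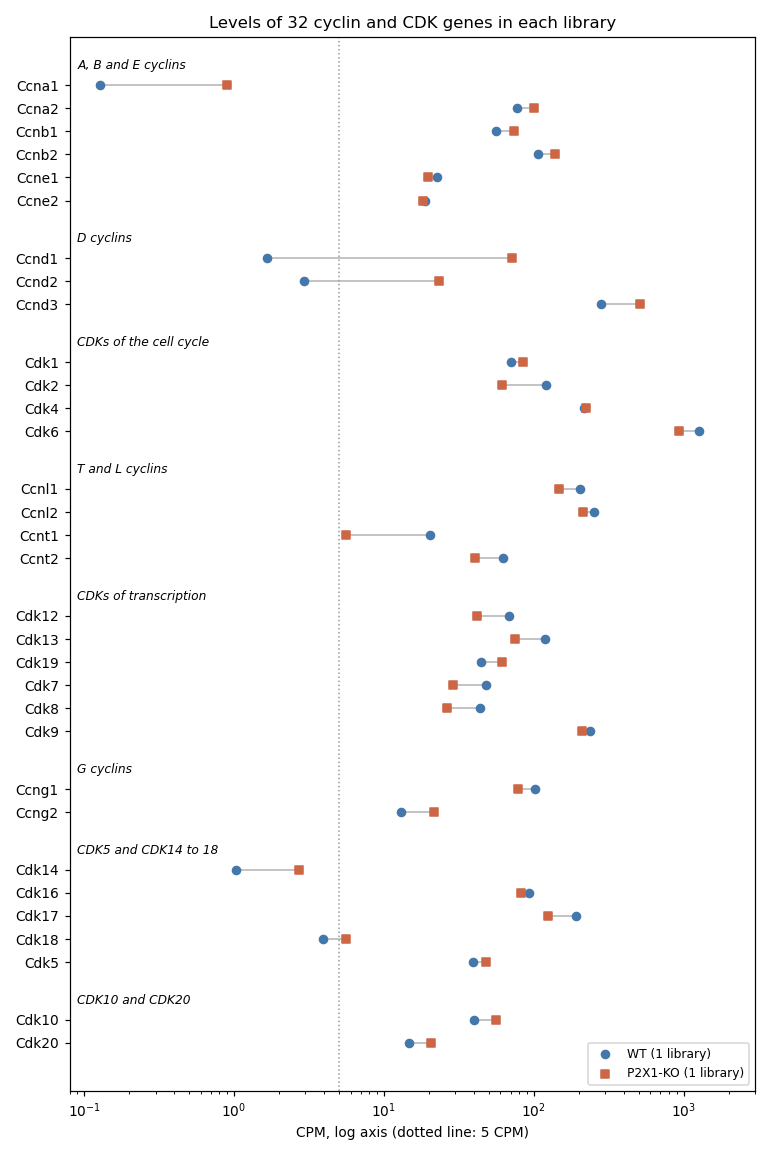
Levels of the 32 members with a count, in CPM on a log axis, by role; each circle is the WT-labelled library and each square the KO-labelled library (1 library each). Ccnd1 and Ccnd2 lie below the dotted 5 CPM line in WT and at 71.6 and 23.4 CPM in P2X1-KO, while the symbols of most other members lie close together.

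All 3 D cyclins, the growth-factor-responsive partners of CDK4 and CDK6, were higher in the KO-labelled library, by factors that ranged from 1.81 to 42.9. Ccnd1 (chromosome 7, 144929931 to 144939925, minus strand, mm10) had 26 counts in the WT-labelled library and 636 in the other, or 1.67 and 71.6 CPM. The difference was 42.9-fold (29.0 to 66.2), the 34th highest ratio among the 10483 genes. Ccnd2 (chromosome 6, 127125162 to 127152193, minus strand) had 46 and 208 counts, or 2.95 and 23.4 CPM, and was 7.94-fold higher (5.74 to 11.2). Both were thus scarce in the WT-labelled library and plainly present in the KO-labelled library. Ccnd3 (chromosome 17, 47505051 to 47599691, plus strand) had 4392 and 4533 counts, or 282 and 510 CPM, and was 1.81-fold higher (1.74 to 1.89). Ccnd3 came out beyond 2-fold, at 1.14 log2 units, once exon length and GC content were corrected for.

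Ccnd3 was the main D cyclin transcript of both libraries, with a smaller share where Ccnd1 was present. Per kilobase of exon, Ccnd3 stood at 32.1 CPM per kb in the WT-labelled library and 58.2 in the other, Ccnd1 at 0.354 and 15.2, and Ccnd2 at 0.314 and 2.49. Ccnd1 made up 1.08% of the D cyclin level per kilobase in the WT-labelled library and 20.05% in the KO-labelled library, and Ccnd3 98.0% and 76.7%. Of raw D cyclin counts, Ccnd1 held 0.582% (exact 95% interval 0.381 to 0.852) and 11.8% (11.0 to 12.7). Summed over the 3 genes, D cyclin transcripts were 2.11-fold higher (2.03 to 2.20) in the KO-labelled library. The exons of Ccnd1 overlap those of Oraov1 on the opposite strand over 1100 bases, 23.4% of its exon length. Oraov1 itself had 337 and 169 counts and was 1.14-fold lower in the KO-labelled library (0.942 to 1.37), and so did not share the difference of Ccnd1. The higher D cyclin levels ran in the same direction as most neutrophil and monocyte markers and the collagens given above. Other markers, Ly6g, Ly6c2, Pdgfrb and Cxcl12 among them, were lower, and the part of these cells was not tested.

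CDK4 and CDK6, the kinases that D cyclins bind, did not follow them. Cdk6 was the member with the most counts, 19708 in the WT-labelled library and 8303 in the KO-labelled library, or 1264 and 935 CPM. It was 1.35-fold lower in the KO-labelled library (1.32 to 1.39), but 0.041 log2 units higher after correction for exon length and GC content. Cdk4 had 3376 and 1980 counts, or 217 and 223 CPM, a 1.03-fold difference (0.973 to 1.09) whose direction turned under total-count scaling. Exons of Cdk4 and Tspan31 overlap on opposite strands over 19.7% of the Cdk4 length, and Tspan31 was 2.33-fold higher. Per kilobase, Cdk6 stood at 90.4 CPM per kb in the WT-labelled library against 66.6 for Cdk4, and at 66.8 against 68.6 in the KO-labelled library. Summed over both genes, the ratio of CPM was 0.782 (0.764 to 0.800). The pair was near parity in the KO-labelled library, and Cdk6 was the higher of the pair in the WT-labelled library.

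**Figure D2:**
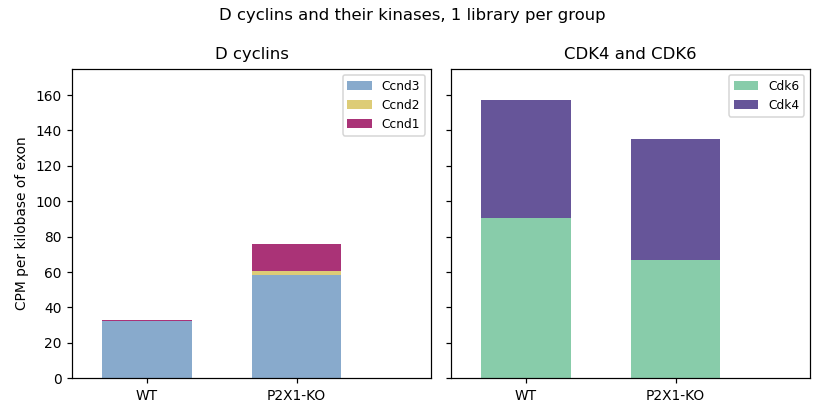
Stacked levels of the D cyclins (left) and of Cdk4 and Cdk6 (right) in CPM per kilobase of exon, 1 library per group. The D cyclin sum was 32.8 in the WT-labelled library and 75.9 in the KO-labelled library, while the kinase sum was 157 and 135.

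CDK inhibitor genes were higher as well, counted here for all CDKs and not for CDK4 and CDK6 alone. Of 8 inhibitor genes 7 reached 5 CPM, all 7 were higher in the KO-labelled library with intervals above 1, and 4 of them reached 2-fold (median log2 difference 1.08). Over all genes, 35.9% had such an interval and 12.1% reached 2-fold. Cdkn2c, which encodes the CDK4 and CDK6 inhibitor p18, stood at 5.07 and 92.1 CPM. Cdkn2a, the locus of p16 and ARF, stood at 2.76 and 30.3 CPM, and Cdkn2d, which encodes p19, at 36.0 and 87.6 CPM. Cdkn1a, which encodes p21, stood at 41.6 and 88.5 CPM. The ratios were 18.2 (14.4 to 23.2) for Cdkn2c, 11.0 (7.94 to 15.5) for Cdkn2a, 2.43 (2.18 to 2.71) for Cdkn2d and 2.13 (1.92 to 2.37) for Cdkn1a. Cdkn1a lay under 2-fold when scaled to total counts (ratio 1.88), and Cdkn2d under the length and GC correction (1.96). The D cyclins and the CDK inhibitor genes at 5 CPM or more were thus higher in the same library. Cdkn2b, the p15 gene, had 0 and 5 counts.

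The E cyclins were near level, while their kinase Cdk2 was lower. Ccne1 had 351 and 174 counts in the libraries labelled WT and P2X1-KO, or 22.5 and 19.6 CPM, 1.15-fold lower in the latter with an interval that spans no change (0.956 to 1.39). Ccne2 stood at 18.8 and 18.1 CPM, 1.04-fold lower (0.853 to 1.26), with the opposite sign under the length and GC correction and upper-quartile scaling. Its exons overlap those of Ints8 on the opposite strand over 17.4% of its length, and Ints8 was 1.86-fold lower (1.62 to 2.15). Cdk2 (chromosome 10, 128697939 to 128705031, minus strand) had 1891 and 543 counts, or 121 and 61.1 CPM, and was 1.98-fold lower in the KO-labelled library (1.80 to 2.19). It lay just inside 2-fold, and passed it when libraries were scaled to total counts. After the length and GC correction Cdk2 was at -0.71 log2 units, against -0.98 before. Cdk3 had no row of its own; the row of its pseudogene, Cdk3-ps, named after its values were seen, had 166 and 26 counts and was 3.64-fold lower (2.40 to 5.73).

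The cyclins and the kinase of S phase to mitosis were all modestly higher in the KO-labelled library, by factors from 1.20 to 1.32. Ccna2, whose product binds CDK2 in S phase and CDK1 later, stood at 77.1 CPM in the WT-labelled library and 100.6 CPM in the KO-labelled library, 1.31-fold higher (1.20 to 1.42). Ccnb1, the main mitotic cyclin, stood at 55.7 and 73.7 CPM and was 1.32-fold higher (1.19 to 1.47). Ccnb2, a second B cyclin, stood at 107 and 139 CPM and was 1.31-fold higher (1.21 to 1.41). Cdk1, their kinase, stood at 70.9 and 84.8 CPM and was 1.20-fold higher (1.09 to 1.31). All 4 intervals lay above 1 and none reached 2-fold. Over all genes, 35.9% had an interval above 1 and 12.1% were at least 2-fold higher. Scaled to total counts, Cdk1 had a ratio of 1.06 and an interval that spans no change (0.962 to 1.16). Exosc9, on the opposite strand, overlaps 12.5% of the Ccna2 exon length and was itself 1.23-fold higher (1.09 to 1.39). After the length and GC correction Ccnb2 was level, at 0.02 log2 units, while Ccna2, Ccnb1 and Cdk1 kept differences of 0.56, 0.63 and 0.45. The Cdk1 to Cdk2 balance also differed: of the level per kilobase of both genes, Cdk1 held 42.4% in the WT-labelled library and 63.6% in the KO-labelled library. The germline cyclin Ccna1 had 2 and 8 counts, a ratio of 7.02 with an interval of 1.40 to 67.9, and Ccnb3, another germline cyclin, had 0 counts in both.

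Promoter windows of Ccnb1, Ccnb2, Cdk1 and Cdk2 are shown as a description. Any part of their motifs in the ratios was not tested. Each window is the 250 bases before the RefSeq start site on GRCm38.p6, printed 5′ to 3′ on the gene's strand, and windows were in the table for 27 of the 34 members. Capitals mark matches on either strand: CCAAT, the core bound by NF-Y, and TTTGAA, a core of the cell cycle homology region, also searched as TTCGAA. E2F-like letters were searched in 3 forms, of which TTCGCGC was one, while TTGGCGC was another, and the last was TTCCCGC. In Ccnb1, 1 CCAAT shares bases with TTGGCGC on the other strand.
Ccnb1 (chr13:100786487-100786736, minus strand): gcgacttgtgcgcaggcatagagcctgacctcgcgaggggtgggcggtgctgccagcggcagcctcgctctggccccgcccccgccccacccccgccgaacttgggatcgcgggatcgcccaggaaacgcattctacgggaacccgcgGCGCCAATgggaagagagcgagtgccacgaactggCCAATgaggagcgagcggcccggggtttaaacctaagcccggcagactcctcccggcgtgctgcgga
Ccnb2 (chr9:70421555-70421804, minus strand): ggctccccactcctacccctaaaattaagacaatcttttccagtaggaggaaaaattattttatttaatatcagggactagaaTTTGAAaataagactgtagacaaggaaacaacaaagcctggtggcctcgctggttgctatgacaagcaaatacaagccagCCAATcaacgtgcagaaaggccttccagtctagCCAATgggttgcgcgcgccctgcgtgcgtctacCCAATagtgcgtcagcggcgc
Cdk1 (chr10:69352913-69353162, minus strand): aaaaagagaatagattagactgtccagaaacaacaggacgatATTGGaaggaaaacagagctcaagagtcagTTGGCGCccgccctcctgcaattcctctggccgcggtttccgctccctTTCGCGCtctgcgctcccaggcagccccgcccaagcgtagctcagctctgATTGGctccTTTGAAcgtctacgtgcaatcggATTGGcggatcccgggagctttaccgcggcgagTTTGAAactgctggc
Cdk2 (chr10:128705052-128705301, minus strand): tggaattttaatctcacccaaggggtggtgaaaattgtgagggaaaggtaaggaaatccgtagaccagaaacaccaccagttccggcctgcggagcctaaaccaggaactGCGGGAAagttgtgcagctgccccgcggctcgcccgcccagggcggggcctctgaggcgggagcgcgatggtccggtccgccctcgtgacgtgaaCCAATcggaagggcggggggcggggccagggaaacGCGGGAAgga

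CCAAT occurred 2 times in the Ccnb1 window, 3 times in Ccnb2, 3 times in Cdk1 and once in Cdk2. Of all 32851 promoter windows, 33.8% held at least 1 CCAAT, and 13 of the 27 members did. TTTGAA was found 2 times in Cdk1 and 1 time in Ccnb2. With Cdk16, 3 of the 27 members held it, and 16.0% of all windows did. Cdk1 also held the E2F-like TTCGCGC once and, further upstream, TTGGCGC once, and Cdk2 held TTCCCGC 2 times, both on the strand opposite to the one printed. An E2F-like motif of these 3 kinds was found in 5 of 27 members and in 6.69% of all windows, and CCAAT together with a cell cycle homology core in 3 members and 6.02% of all windows. These are matches of letters, not measured binding. Members without a window were Ccna2, Ccnd1, Ccnd2, Ccne2, Cdk17, Cdk19 and Cdk5.

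Enzymes and factors around the cell cycle members differed in both directions. Among 9 regulators of CDK activity, 0 reached 2-fold on the higher side and 1 on the lower: Wee1, the kinase that holds CDK1 inactive, at 53.9 and 25.6 CPM, 2.11-fold lower in the KO-labelled library (1.82 to 2.45), and just inside 2-fold with upper-quartile scaling (-0.98 log2 units). Mnat1, a subunit of the CDK-activating kinase, was 1.88-fold lower (1.61 to 2.22). Cks1b, a small CDK-binding protein gene, was 1.63-fold higher (1.47 to 1.81) and Cdc37, a chaperone of kinases, 1.52-fold higher (1.46 to 1.59). Among 12 retinoblastoma and E2F genes the 2 beyond 2-fold were lower: Tfdp2, an E2F dimer partner, at 44.4 and 9.68 CPM, and Rbl1, which encodes p107, at 58.5 and 28.8 CPM, 2.03-fold lower (1.76 to 2.34). Rbl1 was within 2-fold after the length and GC correction, at -0.58 log2 units, and with upper-quartile scaling, at -0.93. E2f2 was 1.75-fold higher (1.58 to 1.93), and E2f1 1.19-fold higher (1.07 to 1.31). Of 6 genes of the B-MYB and FOXM1 group, which act on mitotic promoters, Lin52 was 4.09-fold lower (2.63 to 6.63) and Lin54 2.18-fold lower (1.73 to 2.77), whereas Foxm1 was 1.54-fold higher (1.40 to 1.70) and Lin37 1.18-fold higher (1.03 to 1.36). Lin54 was within 2-fold after the length and GC correction, at -0.66 log2 units.

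Of 18 genes of the ubiquitin ligases that destroy cyclins or of their substrate receptors and inhibitors, 1 reached 2-fold on the higher side and 1 on the lower. The shares over all genes were 12.1% and 10.6%. Anapc11, the RING subunit of the anaphase-promoting complex, was 2.41-fold higher (2.17 to 2.68), and its fellow subunit gene Cdc27 was 2.06-fold lower (1.79 to 2.37), but within 2-fold after the length and GC correction (-0.77 log2 units) and with upper-quartile scaling (-0.95). Ube2c, which encodes the complex's ubiquitin-conjugating enzyme, was 1.89-fold higher (1.74 to 2.06), and Anapc1 1.83-fold lower (1.69 to 1.98). None of 16 proliferation genes was 2-fold apart, against 22.7% of all genes. The survivin gene Birc5 and the mitotic kinase gene Plk1 were 1.86-fold (1.69 to 2.04) and 1.57-fold (1.43 to 1.73) higher, and the helicase subunit genes Mcm3 and Mcm2 were 1.28-fold and 1.24-fold lower.

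**Figure D3:**
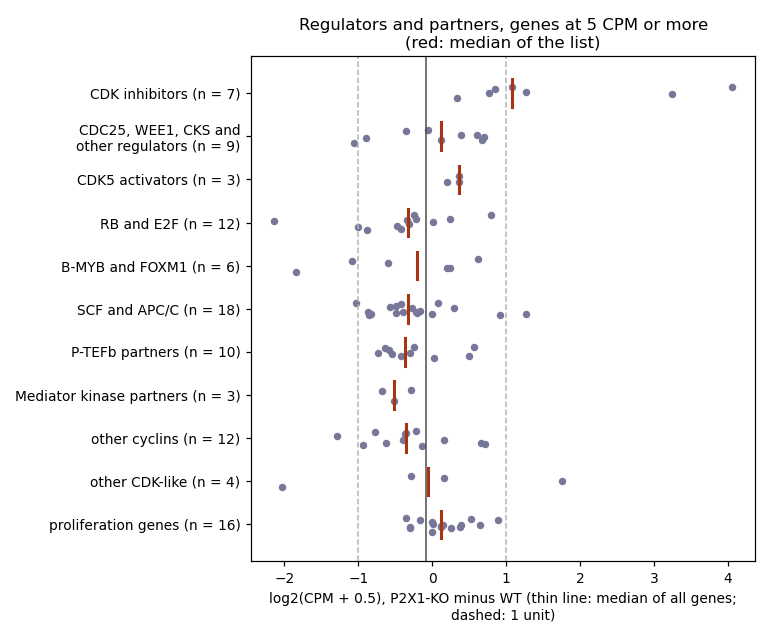
Differences in log2(CPM + 0.5) of partner genes at 5 CPM or more, P2X1-KO minus WT; each point is 1 gene, each red bar a list's median, and the thin line the median of all genes (-0.08). CDK inhibitors have a median of 1.08, and the other medians lie between -0.52 and 0.36.

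The members that act on RNA polymerase II and in splicing were mostly lower in the KO-labelled library. Of these 10, 4 cyclins and 6 kinases, 9 were lower and 1 higher, each with an interval that excludes no change, and the median log2 difference was -0.63. Of all genes, 43.7% had an interval below a ratio of 1 and 35.9% above it. They are long transcripts, with a median exon length of 7577 bases against 4360.5 over all genes. After correction for length and GC content the same split of 9 lower and 1 higher was found, but the median was -0.15 and the intervals of Ccnt2, Ccnl2 and Cdk8 then spanned no change. Across the 29 members Spearman's rho of exon length with the log2 difference was -0.29, and -0.31 across 10006 genes. Genes of 1 library pair are not independent replicates, so these are descriptions only.

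**Figure D4:**
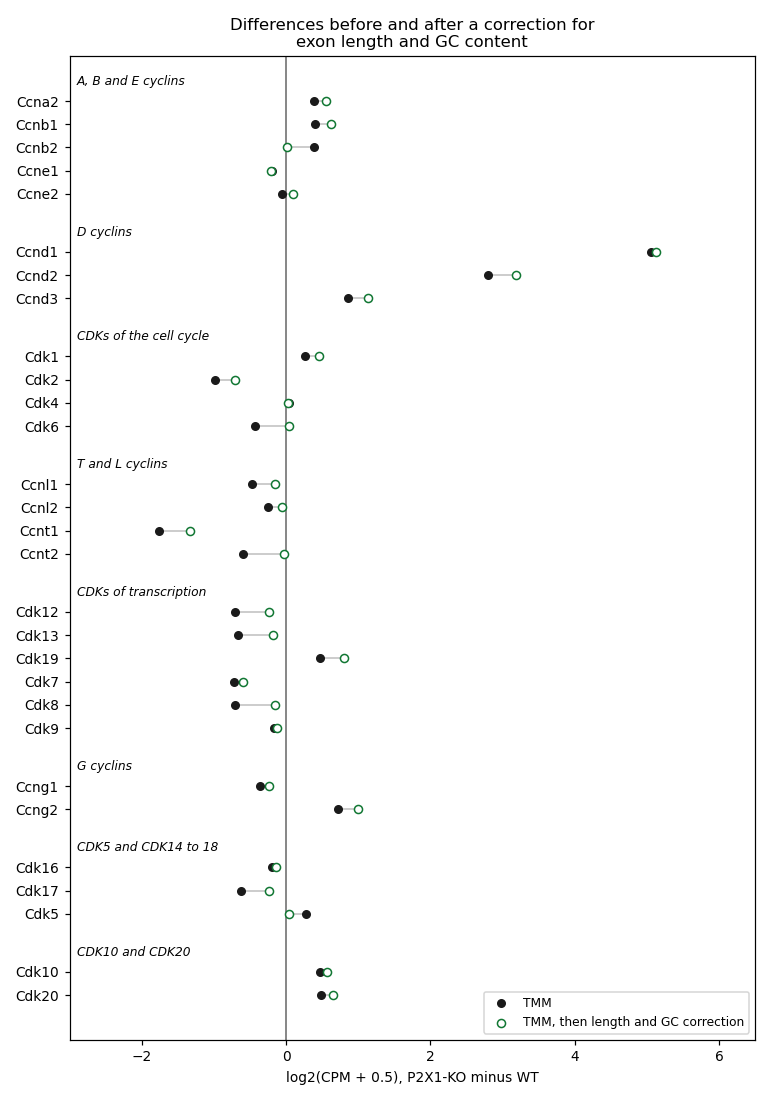
Difference in log2(CPM + 0.5), P2X1-KO minus WT, for 29 members with TMM scaling (filled) and after a further correction for exon length and GC content (open). Cdk6 moves from -0.44 to 0.041 and the 10 genes of transcription from a median of -0.63 to -0.15, while Ccnd1 is at 5.06 and 5.12.

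Ccnt1, the cyclin T1 gene of the elongation kinase P-TEFb, was the member furthest below level. Ccnt1 (chromosome 15, 98538689 to 98570923, minus strand) had 317 counts in the WT-labelled library and 50 in the KO-labelled library, or 20.3 and 5.63 CPM. It was 3.61-fold lower (2.67 to 4.97), the 262nd lowest ratio of 10483 genes, and -1.32 log2 units after the length and GC correction. An antisense gene, 9330020H09Rik, overlaps 7.59% of its exon length and lay in the other direction, 1.68-fold higher (1.25 to 2.26). Ccnt2, its paralog, had 967 and 362 counts, or 62.0 and 40.8 CPM, and was 1.52-fold lower (1.35 to 1.72), but level at -0.02 log2 units after the correction. Of the level per kilobase of both T cyclins, Ccnt1 held 30.6% and 15.7%. Cdk9, the kinase both bind, stood at 236 and 209 CPM, 1.13-fold lower (1.06 to 1.19).

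Partners of P-TEFb leaned the same way without reaching 2-fold. Of 10 at 5 CPM or more, 7 were lower, all with intervals below 1, and the median was -0.36. Such an interval was found for 43.7% of all genes, whose median was -0.08. After the length and GC correction 7 of the 10 were still lower, with a median of -0.23. Aff1, a scaffold of the super elongation complex, was 1.56-fold lower (1.44 to 1.69). Mepce, whose product caps the 7SK RNA that restrains P-TEFb, was 1.41-fold higher (1.29 to 1.53), and Ell2, an elongation factor gene, 1.53-fold higher (1.07 to 2.19).

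The paralogs Cdk8 and Cdk19, alternative kinases of the Mediator complex, went in opposite directions. Cdk8 had 683 counts in the WT-labelled library and 236 in the KO-labelled library, or 43.8 and 26.6 CPM, 1.65-fold lower (1.42 to 1.92). Cdk19 had 690 and 548 counts, or 44.3 and 61.7 CPM, 1.39-fold higher (1.24 to 1.56). The pair was thus at equal CPM in the WT-labelled library and unequal in the other, and Cdk8 held 49.7% of their raw counts (47.1 to 52.4) and then 30.1% (26.9 to 33.4). Per kilobase, Cdk8 held 37.0% and 20.4% of the level. After the length and GC correction the differences were -0.15 for Cdk8 and 0.80 for Cdk19. Of the other Mediator kinase subunits, Ccnc, the cyclin both kinases bind, was 1.33-fold lower (1.07 to 1.68), Med12 1.6-fold lower (1.49 to 1.71) and Med13 1.44-fold lower (1.27 to 1.64). The 3 Mediator kinase partners at 5 CPM or more, Ccnc not among them, had a median log2 difference of -0.52. It was -0.08 after the length and GC correction, with 2 genes lower and 1 higher.

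The kinases of the polymerase tail with other partners were lower by similar factors. Cdk7, the kinase of the CDK-activating complex and of TFIIH, had 747 and 256 counts, or 47.9 and 28.8 CPM, and was 1.66-fold lower (1.44 to 1.92). After the correction it was at -0.60 log2 units, against -0.72 before. Its cyclin Ccnh was 1.55-fold lower (1.33 to 1.81), next to Mnat1 above, so all 3 subunits were lower. Cdk12 and Cdk13, elongation kinases, stood at 68.6 and 42.0 CPM and at 119 and 75.0 CPM, 1.63-fold (1.45 to 1.84) and 1.59-fold (1.45 to 1.74) lower. After the correction they were at -0.24 and -0.18 log2 units. Their cyclin Ccnk was 1.71-fold lower (1.55 to 1.89). The balance of the 2 kinases was alike, with Cdk12 at 39.8% and 39.1% of their level per kilobase. The splicing-associated L cyclins were lower by less: Ccnl1 stood at 204 and 147 CPM, 1.39-fold lower (1.30 to 1.48), and Ccnl2 at 253 and 213 CPM, 1.19-fold lower (1.13 to 1.26). Cdk11b, the kinase that L cyclins bind, was 1.22-fold lower (1.15 to 1.30).

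**Figure D5:**
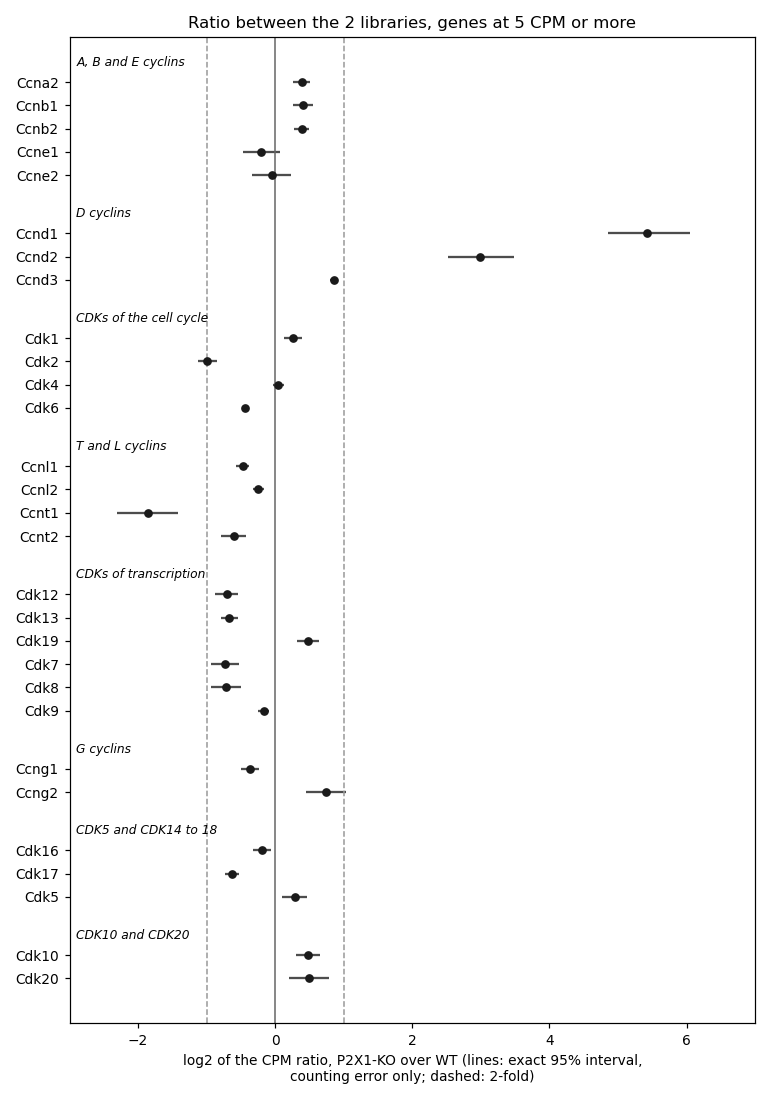
Ratio of CPM between the KO-labelled library and the WT-labelled library on a log2 axis, for the 29 members at 5 CPM or more; lines are exact 95% intervals for counting error and dashed lines mark 2-fold. Ccnd1, Ccnd2 and Ccnt1 lie wholly beyond the dashed lines, and 9 of the 10 genes of transcription lie left of 0.

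The G cyclins, which respond to p53 and FOXO factors and have no established cycle kinase, differed in opposite directions. Ccng1 had 1582 and 698 counts, or 101 and 78.6 CPM, 1.29-fold lower in the KO-labelled library (1.18 to 1.41). Ccng2 had 203 and 193 counts, or 13.0 and 21.7 CPM, 1.67-fold higher (1.36 to 2.04), and reached 2-fold under the length and GC correction (1.0 log2 units). Ccng2 held 11.4% of the raw counts of the pair in the WT-labelled library (9.94 to 12.9) and 21.7% in the KO-labelled library (19.0 to 24.5).

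Among the kinases related to CDK5, Cdk17 was lower and Cdk5 slightly higher. Cdk5, known from neurons and also present in myeloid cells, stood at 39.6 and 48.2 CPM, 1.22-fold higher (1.07 to 1.38). Its interval spanned no change when scaled to total counts (ratio 1.08, 0.949 to 1.22) and after the length and GC correction (0.911 to 1.17). Of its activator and binding genes, 3 of 5 reached 5 CPM and all 3 were within 2-fold, where 22.7% of all genes were at least 2-fold apart. Cdk5rap2 and Cdk5rap3 were 1.29-fold and 1.15-fold higher. Cdk5r1, the p35 activator gene, had 29 and 38 counts, and Cdk5r2 had 0 in both. Cdk16, of the PCTAIRE kinases, stood at 93.2 and 81.6 CPM, 1.14-fold lower (1.04 to 1.25), with an interval that reached no change under upper-quartile scaling. Cdk17, of the same group, stood at 192 and 124 CPM, 1.55-fold lower (1.44 to 1.66). It was at -0.24 log2 units after the length and GC correction, against -0.63 before. Elk3, on the opposite strand, overlaps 5.18% of the Cdk17 exon length and lay in the other direction, 1.97-fold higher (1.79 to 2.17). Cdk14 had 16 and 24 counts and Cdk18 61 and 50, both with a mean under 5 CPM, and Cdk15 had 0 counts in both libraries.

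Cdk10 and Cdk20 were both modestly higher in the KO-labelled library. Cdk10, a kinase that pairs with cyclin M, stood at 40.0 CPM in the WT-labelled library and 55.6 CPM in the KO-labelled library, 1.39-fold higher (1.23 to 1.57). Cdk20, also called cell cycle-related kinase, stood at 14.7 and 20.7 CPM, 1.41-fold higher (1.16 to 1.72). Both intervals lay above 1 and within 2-fold, where 35.9% of all genes had an interval above 1.

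Of 12 cyclin and cyclin-binding partners at 5 CPM or more that the names do not cover, 0 reached 2-fold on the higher side and 2 on the lower. These were Ccnj, a cyclin of little-known role, at 17.4 and 6.87 CPM, and Cables1, which encodes a CDK-binding adaptor, at 9.94 and 4.95 CPM. Cables1 was within 2-fold, at -0.86 log2 units, under upper-quartile scaling and under the length and GC correction. Ccnf, the cyclin F gene, whose product is a ubiquitin ligase receptor, was 1.58-fold higher (1.39 to 1.79), and Ccnyl1 1.69-fold higher (1.23 to 2.33). Of the CDK-like and CDK2-associated genes at this level, Cdk2ap2 was 3.76-fold higher (2.66 to 5.39) and Cdkl3 4.62-fold lower (3.09 to 7.17). Over all partner lists, 6 of 100 genes reached 2-fold on the higher side and 9 on the lower, against 12.1% and 10.6% of all genes.

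By level per kilobase of all annotated exons merged, the order of the members differed at the top. In the WT-labelled library it ran from Cdk6 at 90.4 CPM per kb through Ccnb2 at 69.8, Cdk4 at 66.6, Cdk9 at 51.1 and Ccnl2 at 48.0. In the KO-labelled library it ran from Ccnb2 at 91.0 through Cdk4 at 68.6, Cdk6 at 66.8, Ccnd3 at 58.2 and Cdk9 at 45.4. With 1 library per group the spread between samples is unknown, so it cannot be said which neighbours in this order differ beyond it. Together the 34 members took 0.408% of the counts of the WT-labelled library (exact 95% interval 0.405 to 0.412) and 0.334% of the other (0.330 to 0.338). The 18 kinases held 0.278% and 0.196%, and the 16 cyclins 0.130% and 0.138%. These are shares of raw totals, without the scaling used for CPM. In CPM the members summed to 3838 and 3551, the kinases to 2617 and 2086, and the cyclins to 1222 and 1465. Cdk6 alone made up 1264 and 935 CPM of the kinase sums.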

How the data were processed

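Whole-number read counts per gene, not normalized, were deposited by the authors, with 1 column for each of the 2 libraries. HISAT2 2.0.4 and the mm10 build are named in the submitters' processing notes; the sources used here do not give the counting tool, annotation or strand setting, so reads of overlapping genes cannot be separated. The table has 46095 rows, of which 27 carry dates in place of symbols (0.147% and 0.110% of counts); they stayed in the totals.

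Counts were scaled with TMM in edgeR 4.0.16 (R 4.3.3) to effective library sizes of 15591519 (WT) and 8882591 (P2X1-KO). Folds are ratios of the resulting CPM, with exact 95% Clopper-Pearson intervals of the counts given their sum (scipy 1.17.1). Log2 differences use a pseudocount of 0.5 CPM, which understates low genes. Genes whose 2 libraries averaged 5 CPM or more were compared, and calls were made at 2-fold. With 1 library per group, edgeR's quasi-likelihood test and DESeq2's test could not be fitted; DESeq2 1.42.0 served for size factors. The code for scaling and intervals was run on simulated counts with known folds and counting error alone. Those counts follow the model of the intervals, and far fewer genes differ in them than in the data. They therefore check the code, not whether the scaling or the intervals hold for these libraries. Intervals cover counting error only, since reads without molecular identifiers are not independent molecules. Exon lengths, coordinates and transcript GC came from GENCODE M21 on the same assembly, and matched all 34 members. A gene's exon length is that of all its annotated exons merged, not of the transcripts expressed. Shares and orders per kilobase between genes therefore depend on the annotation. GC is that of a gene's longest transcript, and the length and GC correction subtracts the median difference in 20 bins of each.

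Every member was described; from each partner list up to 2 genes in each direction, by the bound nearest to no change, and every gene beyond 2-fold were named, except 1 that is not reported here. Ccnc, Ccnh, Cdk5r1, Cdk5r2, Cdkn2b, Cdk3-ps and genes that overlap members were named after their values were seen. Members and lists were chosen with earlier results of these data known. Alternatives were other scalings, pseudocounts, minimum levels, the correction above, a 1.5-fold call and raw count shares.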

Additional observations from a re-analysis of the deposited data

How the results depend on the processing

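No paired analysis was possible because each group has 1 library, and leaving out a library was not possible for the same reason. Of 221 values of the 32 measured members under alternatives, 162 stayed inside the interval of the reported value, 58 moved beyond it and 1 turned direction. The last was Cdk6, at 0.041 log2 units after the length and GC correction. Cdk4 and Ccne2, whose intervals span no change, also lay on both sides of 0, and 29 of 32 members stayed on 1 side throughout.

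Members at least 2-fold higher numbered 4 with no filter on low values, 4 with the length and GC correction and 4 at 1.5-fold, against 2; those lower numbered 2 with total counts, 2 without the 20 most abundant genes, and 8 at 1.5-fold, against 1. Over all genes, 20541 were counted without a filter; the number higher was 2074 at 1 CPM, 3604 without a filter and 2293 at 1.5-fold, against 1271, and the number lower 1870, 6484 and 2539, against 1110, and 1731 without the 20 most abundant genes. Partners higher numbered 10 without a filter and 19 at 1.5-fold, against 6; those lower 14 with total counts, 14 without the 20 most abundant genes, 5 with upper-quartile scaling, 5 with the length and GC correction and 22 at 1.5-fold, against 9. The Ccnd1 share of D cyclins was 0.582% and 11.8% by raw counts, against 1.08% and 20.05% per kilobase. The higher share of genes beyond 2-fold was 37.2% without the 20 most abundant genes and 60.9% with upper-quartile scaling; the cause was not tested. Scaled to total counts without the 20 most abundant genes, Cdk1 and Cdk5 (0.063 and 0.088 log2 units) also had intervals that span no change, and Cdkn1a a ratio of 1.86. Depth limits Ccna1, Cdk14, Ccnb3 and Cdk15, with at most 24 counts in a library.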
